A study of Mus musculus with 2 samples.

Results

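Among γδ T cells sorted from the murine thymus, a group of cells carried transcripts of Cd24a together with Sox13, Maf and Blk. These Sox13/Maf/Blk cells were chosen from the raw transcript counts of the thymus library, in which each distinct molecule was counted once as a unique molecular identifier (UMI). Cells with 800 to 4000 detected genes and at most 6% mitochondrial UMIs were kept. A kept cell was taken when it held at least 1 Cd24a UMI, at least 3 UMIs summed over Sox13, Maf and Blk, at most 1 UMI summed over Dntt, Cpa3, Tox2 and Etv5, and at most 4 UMIs summed over 10 cell cycle genes. The rule found 242 cells among 4351 kept thymus cells, a share of 5.56% (exact binomial 95% interval 4.90 to 6.29), and these 242 cells held 794152 UMIs. Since the rule itself uses these 18 genes, their levels are given below as a description and support no statement about the cells.

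γδ T cells leave the thymus with much of their effector type already set. CD24 marks the immature stage and is lost as the cells mature. The high mobility group factor SOX13, the basic leucine zipper factor c-MAF and the SRC family kinase BLK are known for their part in the γδ T cells that go on to make interleukin-17 (IL-17). The γδ T cells of the alternative type 1 programme make interferon-γ and carry cytotoxic and natural killer cell genes.

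The series held 1 library of γδ T cells from the thymus and 1 from the liver of untreated wild-type C57BL/6J mice aged 8 weeks, so the 8-week thymus was the only condition in which the cells could be described. Thymic mononuclear cells were depleted of CD4+ and CD8+ cells with magnetic beads, and CD3e+ TCRγδ+ cells were sorted by flow cytometry before droplet capture of the 3′ ends of transcripts. The study used several mice and gives no map from cells to mice, so each tissue was 1 sample and no difference below has a check by replicates. No p-value was computed. Levels are UMIs summed over the cells of a group per 1000000 UMIs of that group (CPM) with exact Poisson 95% intervals, ratios of levels carry exact conditional 95% intervals, and all intervals cover counting error only, not the variation between mice. Genes of the T cell receptor were not in the gene table, so the chain used by each cell was not analysed here.

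The thymus library held 4541 barcodes, of which 4351 were kept, with a median of 3271 UMIs. The Sox13/Maf/Blk cells held a median of 2946.5 UMIs (1623 to 9150) and 1253.5 genes, against 3295 UMIs and 1332 genes in the other 4109 kept cells, and 8 of the 242 held over 2 times the median of kept cells. Shares of mitochondrial UMIs were alike, with medians of 2.34% and 2.35%. The barcodes of 60 kept thymus cells were also in the liver library, 2 of them among the Sox13/Maf/Blk cells, and leaving those 2 out moved none of 58 genes followed beyond its counting interval.

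For comparison the other kept cells were split by the same genes. Cells with Cd24a and at least 2 UMIs of Dntt, Cpa3, Tox2 and Etv5, genes of an early thymic stage, numbered 1298 and are called the Dntt-type cells. Cells with Cd24a, few early transcripts and at most 2 UMIs of the Sox13, Maf and Blk trio numbered 1004 and are called trio-low Cd24a+ cells. Cells without a Cd24a UMI were split into 331 trio-high and 1265 trio-low cells, and 211 cells were over the limit on cell cycle genes. Depth differed among them, with median UMIs of 4026.5 in the Dntt-type cells, 2879 in trio-low Cd24a+ cells, 3396 in trio-high Cd24a-zero cells and 8984 in cycling cells. A cell with more UMIs passes a minimum of 2 or 3 UMIs more easily, and the part of depth in who met the rule was not tested beyond the alternatives given in the closing section.

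Sox13 stood at 358.9 CPM (318.4 to 403) in the chosen cells against 252.5 CPM in the Dntt-type cells and 339.6 CPM in the trio-high Cd24a-zero cells. Maf stood at 380.3 CPM (338.6 to 425.7) in the chosen cells, against 127.6 CPM in the Dntt-type cells and 280.3 CPM in the trio-high Cd24a-zero cells. Blk stood at 444.5 CPM (399.3 to 493.4), against 291.9 CPM and 538.8 CPM in the same groups. Cd24a, which encodes a small glycosylphosphatidylinositol-anchored glycoprotein, stood at 996 CPM against 485.1 CPM in all other kept cells. In GRCm38.p6 coordinates, Sox13 lies at chr1:133382300-133424459, Maf at chr8:115703253-115706894, Blk at chr14:63372837-63417187 and Cd24a at chr10:43579169-43584265.

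The make-up of the trio in the cells is given as a description, since the rule chose the cells by its sum. A Sox13 UMI was found in 167 cells, a Maf UMI in 181 and a Blk UMI in 193, with at most 5, 5 and 6 UMIs in a cell. All of the trio were detected in 80 cells (33.1%), 2 of the genes in 139 (57.4%) and 1 gene in 23 (9.50%). Most cells lay close to the limits: 124 of the 242 held exactly 3 trio UMIs and 70 held a single Cd24a UMI. Just outside them lay 197 cells with 2 trio UMIs, 162 cells with no Cd24a UMI and 139 cells with 2 UMIs of the early genes, each meeting every other limit. No cell lay just over the cell cycle limit, and 218 of the 242 held no UMI of those 10 genes.

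Because a limit on counts picks cells that drew high by chance, the rule was also applied to a random 50% of each cell's UMIs and the levels were read from the other UMIs. For this split the trio minimum was lowered to 2 UMIs and the other limits were kept. The limit of at most 1 early UMI was therefore looser than in the full counts. It then chose 276 cells. In the unused UMIs, Cd24a was 1.87 times as high in the chosen cells as in the rest (1.70 to 2.06), Sox13 1.69 times (1.41 to 2.01), Maf 1.74 times (1.39 to 2.17) and Blk 1.79 times (1.53 to 2.09), against 2.05, 2.27, 3.95 and 2.36 times in the UMIs that chose the 242 cells. Etv5, which the rule keeps low, was 1.51 times as high in the unused UMIs of the chosen cells (1.23 to 1.83), and Dntt was 1.18 times as high (0.899 to 1.53). Under these changed limits, Etv5 and Dntt were thus not lower in UMIs the rule had not seen. Cd24a and the trio were still higher there, by smaller ratios. The part of the changed limits in these values was not tested.

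**Figure D1:**
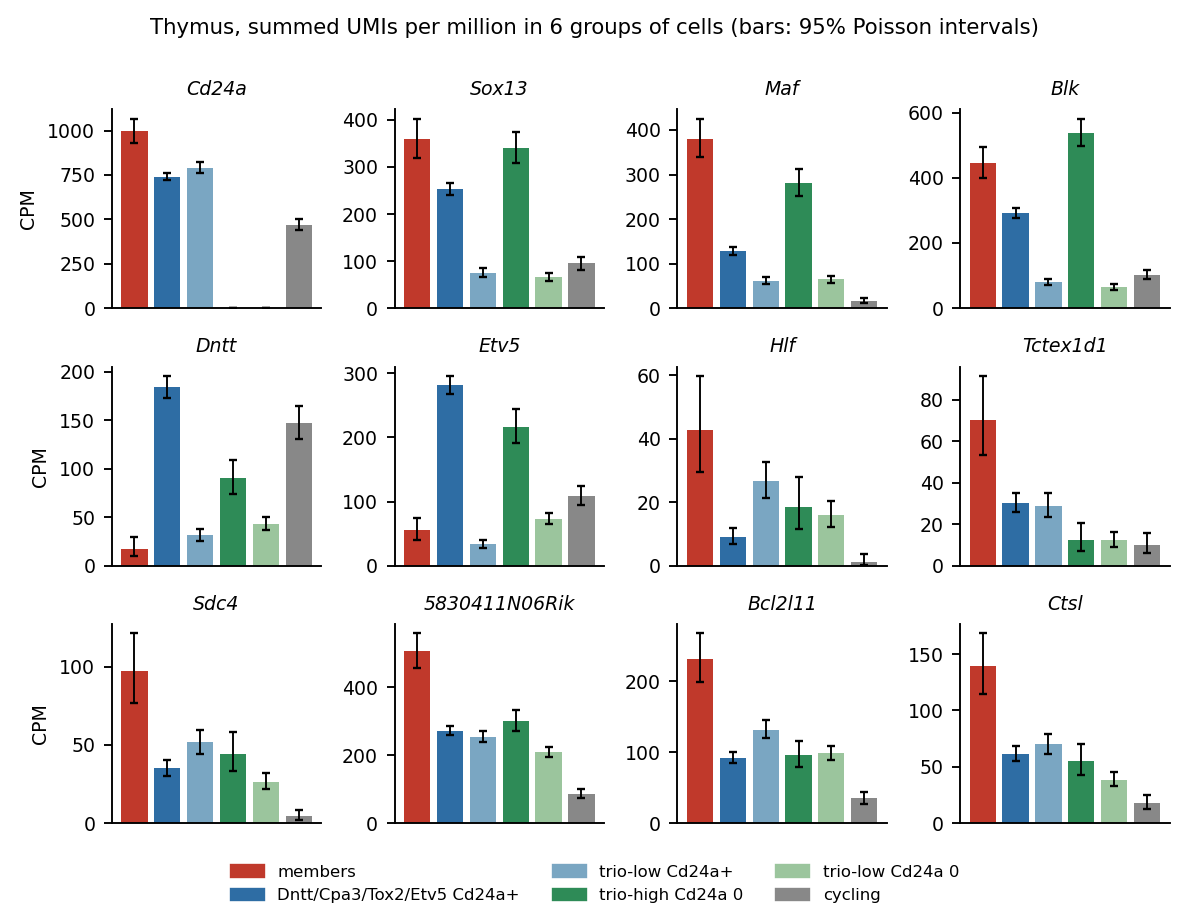
Levels of 12 genes in 6 groups of kept thymus cells, as summed UMIs in CPM with 95% Poisson intervals; members are the 242 Sox13/Maf/Blk cells and trio means Sox13, Maf and Blk. Hlf, Tctex1d1, Sdc4, 5830411N06Rik, Bcl2l11 and Ctsl are highest in the members, while Dntt, Etv5, Cd24a and the trio are fixed in part by the rule.

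Hlf, which encodes a proline- and acid-rich basic leucine zipper factor and lies at chr11:90336535-90390917, was named with the rule as a marker of these cells. It stood at 42.8 CPM from 34 UMIs in the chosen cells, at 26.7 CPM in trio-low Cd24a+ cells, 18.4 CPM in trio-high Cd24a-zero cells, 9.16 CPM in Dntt-type cells and 14.1 CPM over all others. The ratio over all others was 3.03 (2.05 to 4.36), and in the unused UMIs of the split it was 2.07 (1.15 to 3.50). After each cell was thinned to 1500 UMIs, 7.02% of the chosen cells (4.15 to 11.01) and 2.61% of the others had an Hlf UMI, so most of the chosen cells had none at this depth.

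Relative to all other kept thymus cells, the Sox13/Maf/Blk cells had more transcripts of Bcl2l11, Icos and the scavenger receptor gene 5830411N06Rik, more of the thymic genes Sox4 and Hes1, and fewer of the type 1 genes Ccl5, Nkg7 and Ctsw. Low Ccl5 was shared with the Dntt-type cells and the trio-high Cd24a-zero cells, as given below. Cell cycle genes outside the rule were lower as well, in the direction that the rule sets. Genes were compared when they reached 50 CPM in the higher group and 50 UMIs over both, leaving out the 18 genes of the rule, mitochondrial genes and ribosomal protein genes, and a gene is called higher or lower when its levels differed by at least 1.5-fold. Of 2752 genes compared, 157 were higher (5.7% of those compared) and 135 lower (4.91%), and the median log2 ratio over all of them was 0.01. The ratios depend on depth. With the other cells weighted to the UMIs per cell of the chosen ones, Bcl2l11, Icos, 5830411N06Rik, Sox4 and Hes1 moved beyond their counting intervals without a change of direction. Whether each stayed past 1.5-fold is not reported here.

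Tctex1d1, a gene of the dynein light chain family, had the highest ratio, with 70.5 CPM in the chosen cells against 21.9 CPM in the others, a ratio of 3.22 (2.39 to 4.28). The nearby Insl5 and Slc35d1 on chromosome 4 were also higher. Insl5, which encodes an insulin-like peptide, stood at 50.4 against 20.6 CPM (ratio 2.45, 1.72 to 3.402), and Slc35d1, a nucleotide sugar transporter, stood at 209 against 100.4 CPM (ratio 2.08). Tctex1d1 spans chr4:102978703-103005594, Insl5 begins 12.3 kb further on at chr4:103017872-103027271, and Slc35d1 lies 143.4 kb beyond that at chr4:103170649-103222269. A second pair lay on chromosome 7, where 5830411N06Rik (chr7:140247279-140300734) begins 16.1 kb after Cd163l1 (chr7:140197218-140231145). Both encode related scavenger receptors of γδ T cells, so reads shared between them could move counts from one to the other. Of 149 higher genes with a known position, 15 (10.1%) had another higher gene within 200 kb. Of 129 lower genes, 12 (9.30%) had another lower gene as near, a like share. The share over all genes compared was not computed, so these neighbours are a description.

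The 250 bases before a RefSeq start of each of 4 of these genes are shown because Hlf, Tctex1d1, Insl5 and 5830411N06Rik stood out in the chosen cells and because 3 of them had a neighbouring gene that was higher too. Sequences are from RefSeq, build GRCm38.p6, written 5′ to 3′ on the strand of the gene, with any of 3 short motifs in capitals: AACAAT (bound by SOX factors), TGCTGA (bound by MAF factors) and AGGTCA (bound by nuclear receptors), each searched on both strands. For genes with more than 1 start the window is that of the first start given in the RefSeq table, and that of 5830411N06Rik runs past the start of the gene span given above.
Hlf, chr11:90390918-90391167, minus strand: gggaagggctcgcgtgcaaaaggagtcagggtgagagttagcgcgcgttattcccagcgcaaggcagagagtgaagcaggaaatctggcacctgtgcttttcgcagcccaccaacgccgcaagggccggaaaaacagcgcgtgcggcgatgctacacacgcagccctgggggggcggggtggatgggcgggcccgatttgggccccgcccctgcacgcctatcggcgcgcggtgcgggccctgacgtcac
Tctex1d1, chr4:102978453-102978702, plus strand: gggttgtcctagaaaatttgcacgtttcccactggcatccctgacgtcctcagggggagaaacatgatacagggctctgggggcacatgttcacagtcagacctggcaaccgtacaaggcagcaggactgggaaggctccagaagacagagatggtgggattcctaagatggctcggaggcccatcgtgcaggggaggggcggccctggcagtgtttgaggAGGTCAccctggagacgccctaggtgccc
Insl5, chr4:103027272-103027521, minus strand: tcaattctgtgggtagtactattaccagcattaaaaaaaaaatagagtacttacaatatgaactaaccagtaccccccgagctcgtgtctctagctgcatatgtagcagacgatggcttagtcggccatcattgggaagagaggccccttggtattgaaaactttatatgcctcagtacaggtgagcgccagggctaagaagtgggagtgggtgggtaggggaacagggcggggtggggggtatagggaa
5830411N06Rik, chr7:140247051-140247300, plus strand: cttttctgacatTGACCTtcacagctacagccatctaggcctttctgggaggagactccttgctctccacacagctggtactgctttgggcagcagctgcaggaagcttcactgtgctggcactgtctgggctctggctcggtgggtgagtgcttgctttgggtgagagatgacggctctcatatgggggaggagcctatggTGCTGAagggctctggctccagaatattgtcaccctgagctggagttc
The window of 5830411N06Rik held TGCTGA once and AGGTCA once, read there as its reverse complement TGACCT, and that of Tctex1d1 held AGGTCA once. The windows of Hlf and Insl5 held none of these letters. Over 32851 promoter windows of the same length, AACAAT occurred in 9.42%, TGCTGA in 16.1% and AGGTCA in 14.0%, so such matches are common and describe only the sequence.

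The scavenger receptor gene 5830411N06Rik stood at 506.2 CPM in the chosen cells against 232.6 CPM in the others (ratio 2.18, 1.96 to 2.41). After thinning to 1500 UMIs it was detected in 48.4% of the chosen cells and in 28.0% of the others. Icos, which encodes a costimulatory receptor, stood at 76.8 against 33.9 CPM (ratio 2.26, 1.71 to 2.95), although its ratio in the unused UMIs of the split was 1.40 with an interval from 0.899 to 2.09. Tmem176a stood at 56.7 against 36.6 CPM and Cd163l1 at 142.3 against 93.4 CPM (ratios 1.55 and 1.52). Rora, the gene of RORα, was within 1.5-fold, at 201.5 against 141.7 CPM. Of the 16 genes of the 32-gene IL-17 list that could be compared, 5 were higher, none was lower, and the list's median log2 ratio was 0.34, against 0.01 for all genes compared. Part of this rested on 13 cells with mature genes, described below. Without them 3 of 13 compared genes were higher and 2 lower, Il7r and S100a4. The median log2 ratio of the list was then 0.26, against 0.01 for all genes. The 11 genes that picked the 13 cells all belong to this list, so its fall was set in part by that choice. The cytokine genes themselves stayed low, with 2 Il17a UMIs (2.52 CPM) and 12 Il17f UMIs (15.1 CPM) in all 242 cells, and Il23r held 2 UMIs.

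Bcl2l11, Ctsl, Furin and Sdc4 were among the genes with the highest ratios. Bcl2l11, which encodes the pro-apoptotic protein BIM, stood at 231.7 against 95.3 CPM (ratio 2.43, 2.08 to 2.83), and 34.7% of the thinned chosen cells and 14.6% of the others had a Bcl2l11 UMI. Ctsl, the gene of the lysosomal protease cathepsin L, stood at 139.8 against 52.1 CPM, Furin, a proprotein convertase, at 127.2 against 53.6 CPM, and Sdc4, the heparan sulfate proteoglycan syndecan-4, at 97.0 against 33.4 CPM. Their ratios were 2.69, 2.37 and 2.91. The activin receptor gene Acvr2a (ratio 2.42), the polo-like kinase gene Plk3 (2.42), the actin-binding nebulette gene Nebl (2.496), Nav2 (2.32), Zswim6 (2.496), the transcription factor gene Irf8 (2.48) and the uncharacterised Gm15340 (2.95) were also among the 15 genes with the highest ratios, each at 51.6 to 78.1 CPM in the chosen cells.

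Genes of the immature γδ stage moved in both directions. Sox4, a SOX factor of early lymphocytes, stood at 1156 against 723.5 CPM (ratio 1.60, 1.49 to 1.71), and Hes1, a Notch target, at 739.2 against 472.9 CPM (ratio 1.56, 1.44 to 1.70). The chemokine receptor gene Ccr9 and Gata3 were each just within 1.5-fold, at 1162 against 781.7 CPM and 400.4 against 268.6 CPM. Id3, an inhibitor of E proteins that follows T cell receptor signals, was lower at 63.0 against 132.4 CPM (ratio 0.475, 0.352 to 0.629), as was Lef1 at 159.9 against 257.4 CPM (ratio 0.621). Of the 11 genes compared from this 17-gene list, 2 were higher and 2 lower, with a median log2 ratio of 0.34. Among 9 compared genes of the T cell receptor signal response, Nr4a3 (70.5 against 36.1 CPM), Egr1 (188.9 against 119 CPM) and Nr4a2 (83.1 against 55.3 CPM) were higher, whereas Pdcd1, the gene of the inhibitory receptor PD-1, was lower at 26.4 against 72.2 CPM (ratio 0.366) together with Id3. The median log2 ratio of that list was 0.45. The immediate-early gene Fos was higher too, at 508.7 against 320.3 CPM, and with Egr1 made 2 of 9 compared immediate-early and heat shock genes (median 0.34). Of the 3 compared genes of the 13-gene Notch list Hes1 alone was higher (median 0.58).

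Among regulators of the SOX, MAF and E protein families, 4 of 14 compared genes were higher and 2 lower (median log2 ratio 0.32). Ikzf3, which encodes the Ikaros family factor Aiolos, stood at 99.5 against 49.8 CPM, Ets2 at 54.2 against 34.4 CPM and Bach1 at 59.2 against 38.0 CPM, beside Sox4. Sox5, a relative of Sox13, did not differ, at 25.2 and 25.1 CPM, and Mafk, a small MAF protein gene, was at 40.3 and 42.1 CPM. Of 17 compared genes of the SRC family and proximal receptor signalling, the list to which Blk belongs, Cd2 was lower and the other 16 were within 1.5-fold (median log2 ratio 0.09), with Lck at 309.8 against 395.7 CPM, Fyn at 107 against 93.2 CPM and Zap70 at 199 against 149 CPM.

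Type 1 genes were lower. Ccl5, a chemokine of cytotoxic lymphocytes, had the lowest ratio of all genes compared, with 21.4 against 268.2 CPM (ratio 0.0798, 0.0465 to 0.128). Nkg7 stood at 216.6 against 383.9 CPM and Ctsw, a protease of cytotoxic granules, at 74.3 against 133.7 CPM. Id2 was lower as well, so that 4 of the 5 compared genes of the 22-gene list were lower, with a median log2 ratio of -0.83. Against the Dntt-type cells only Gzma of 4 compared genes of this list was lower (median -0.17). Against trio-high Cd24a-zero cells Ctsw and Id2 were the lower 2 of 4 (median -0.49). After thinning, a Ccl5 UMI was found in 3.31% of the chosen cells, 2.47% of the Dntt-type cells and 1.51% of the trio-high Cd24a-zero cells. Tbx21, the gene of T-bet, had 1 UMI in the 242 cells and Ifng 12 (15.1 CPM against 10.8 CPM in the others). The egress genes S1pr1 (97.0 against 145.5 CPM) and Ccr7 (36.5 against 70.7 CPM) were the lower 2 of 14 compared genes of the egress and naive stage (median log2 ratio -0.10) and of 4 compared chemokine receptor genes (median -0.06). None of 9 compared integrin and adhesion genes differed by 1.5-fold (median -0.13). Of 7 compared interferon-induced genes 2 were lower (median -0.35), Rtp4 and Ifi27l2a, the latter at 20.2 against 119.2 CPM. Cd74, the invariant chain of MHC class II and a gene of the B cell list, was lower too, at 15.1 against 72.2 CPM. Of 15 compared cell cycle genes outside the rule, 9 were lower (median -0.78), led by Tuba1b at 94.4 against 339.9 CPM, and with the 211 cycling cells left out of the comparison, a step chosen after seeing the data, 80 genes were lower in place of 135.

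**Figure D2:**
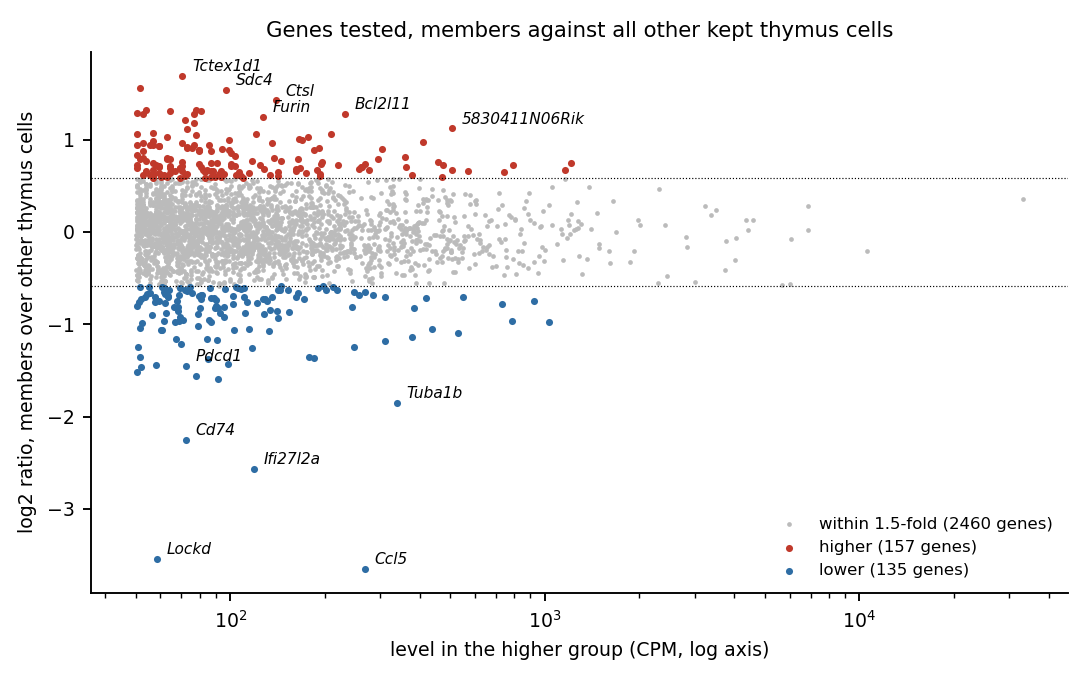
Each point is 1 of the 2752 genes compared between the 242 members and all other kept thymus cells, by its level in the higher group (CPM, log axis) and its log2 ratio; dotted lines mark 1.5-fold. The 157 genes higher in the members reach a log2 ratio of 1.69 at Tctex1d1, and Ccl5 and Lockd lie lowest.

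The Dntt-type cells share Cd24a with the chosen cells. Of the 1298, 684 held at least 3 trio UMIs and so differ by the rule in the early genes alone. The others also fell below the trio limit, so ratios against all 1298 mix both limits. Against all 1298 of them, Icos, Rgs1, Ikzf3 and Bcl2l11 were higher in the chosen cells, while Hes1, Ccr9 and Sox4 were within 1.5-fold. High values of Cxcr6, Ly6a, Tmem176a and S100a6 in the chosen cells rested on 13 of the 242 cells, described below, and are given here with and without them. The Dntt-type cells were not filtered in the same way. Of 2711 genes compared, 155 were higher (5.72%) and 84 lower (3.1%), and against the 684 alone 160 of 2709 were higher (5.91%) and 89 lower (3.29%). Cxcr6, a chemokine receptor of tissue-resident lymphocytes, stood at 52.9 against 8.64 CPM (ratio 6.12, 3.96 to 9.41), Icos at 76.8 against 15.6 CPM (4.94, 3.51 to 6.91), Ly6a at 75.6 against 15.9 CPM (4.75, 3.37 to 6.65) and Tmem176a at 56.7 against 15.7 CPM (3.60). S100a6 stood at 270.7 against 79.9 CPM, Rgs1, a regulator of G protein signalling, at 190.1 against 64.1 CPM, and Ikzf3 at 99.5 against 37.3 CPM. The receptor gene Il7r was at 64.2 against 29.4 CPM. In the IL-17 list 6 of 16 compared genes were higher, and Batf was lower, with a median log2 ratio of 0.52 against 0.01 over all genes. Hlf was 4.67 times as high (2.95 to 7.33), below the filter on level. Without the 13 cells, Cxcr6 stood at 6.75 CPM (ratio 0.781, 0.243 to 1.95), Ly6a at 8.10 CPM (0.510, 0.182 to 1.15), Tmem176a at 14.9 CPM (0.944, 0.455 to 1.77), S100a6 at 79.7 CPM (0.998) and Il7r at 29.7 CPM (1.01), so that none of these was above the Dntt-type cells by 1.5-fold. Icos (4.51, 3.15 to 6.42), Ikzf3 (2.496), Rgs1 (1.83, 1.43 to 2.32) and Hlf (4.72) then kept ratios above 1.5, and in the IL-17 list 3 of 12 compared genes were higher and 1 lower, with a median log2 ratio of 0.18. The fall of the list was set in part by the choice of the 13 cells, which were picked by genes of the same list. Ccr9 stood at 1162 against 1045 CPM and Hes1 at 739.2 against 703.5 CPM.

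Lower than in the Dntt-type cells were Plac8 (551.5 against 1221 CPM, ratio 0.452), the membrane protein gene Ms4a6b (104.5 against 248 CPM), Anxa2 (69.3 against 179.8 CPM), Cd74 (15.1 against 83.0 CPM), Pdcd1 (26.4 against 69.8 CPM), Id3 (63.0 against 136.5 CPM) and the granzyme gene Gzma (2706 against 4787 CPM, ratio 0.565). The Dntt-type cells held more UMIs per cell, and with them weighted to the UMIs per cell of the chosen ones, 49 genes were higher and 35 lower. Cxcr6 (ratio 6.35), Ly6a (4.52), Tmem176a (5.49), S100a6 (3.36), Icos (2.84) and Hlf (2.69) then kept ratios above 1.5, whereas Tctex1d1 (1.47), Sdc4 (1.33) and 5830411N06Rik (1.33) came within it. Without the 13 cells and against the same weighted levels, the ratios were 0.811 for Cxcr6, 0.485 for Ly6a, 1.44 for Tmem176a, 0.987 for S100a6, 2.59 for Icos and 2.72 for Hlf.

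Among Cd24a+ cells without many early transcripts, the chosen cells were lower than the 1004 trio-low cells in type 1 genes, and higher in part of the IL-17 list. Of 2757 genes compared, 128 were higher (4.64%) and 111 lower (4.03%). Higher in the IL-17 list were 7 of 16 compared genes, among them Tmem176a (ratio 3.68), Cxcr6 (2.88), Cd163l1 (142.3 against 63.1 CPM, 2.26), Icos (2.14), 5830411N06Rik (506.2 against 254.4 CPM, 1.99) and S100a4. None was lower, and the list's median log2 ratio was 0.45 against 0.00 for all genes. Without the 13 cells, 4 of 13 compared genes of the list were higher and Il7r was lower, with a median log2 ratio of 0.14. Since genes of the list picked the 13 cells, its fall was set in part by that choice. Cd163l1 (1.78, 1.36 to 2.30), Icos (1.96, 1.39 to 2.73) and 5830411N06Rik (2.01, 1.77 to 2.27) were still higher, whereas Tmem176a (0.964), S100a4 (0.934) and Cxcr6 (0.368, 0.115 to 0.905) were not. In the type 1 list 7 of 8 compared genes were lower, among them Ccl5 (21.4 against 287.3 CPM), Xcl1 (17.6 against 74.9 CPM), Il2rb, the receptor chain CD122 (17.6 against 57.5 CPM), Cd160 (8.81 against 52.7 CPM) and Nkg7 (216.6 against 399.9 CPM), and the list's median was -1.31. The exception was Gzma, which was 1.66 times as high in the chosen cells. Tnfrsf9, the gene of the costimulatory receptor 4-1BB, stood at 8.81 against 65.8 CPM. The hexokinase gene Hk2 stood at 120.9 against 48.9 CPM. Ccr9 (1.77), Hes1 (1.62) and Gata3 (1.55) were higher, while Lef1 (159.9 against 303 CPM) and Id3 (63.0 against 142.8 CPM) were lower.

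**Figure D3:**
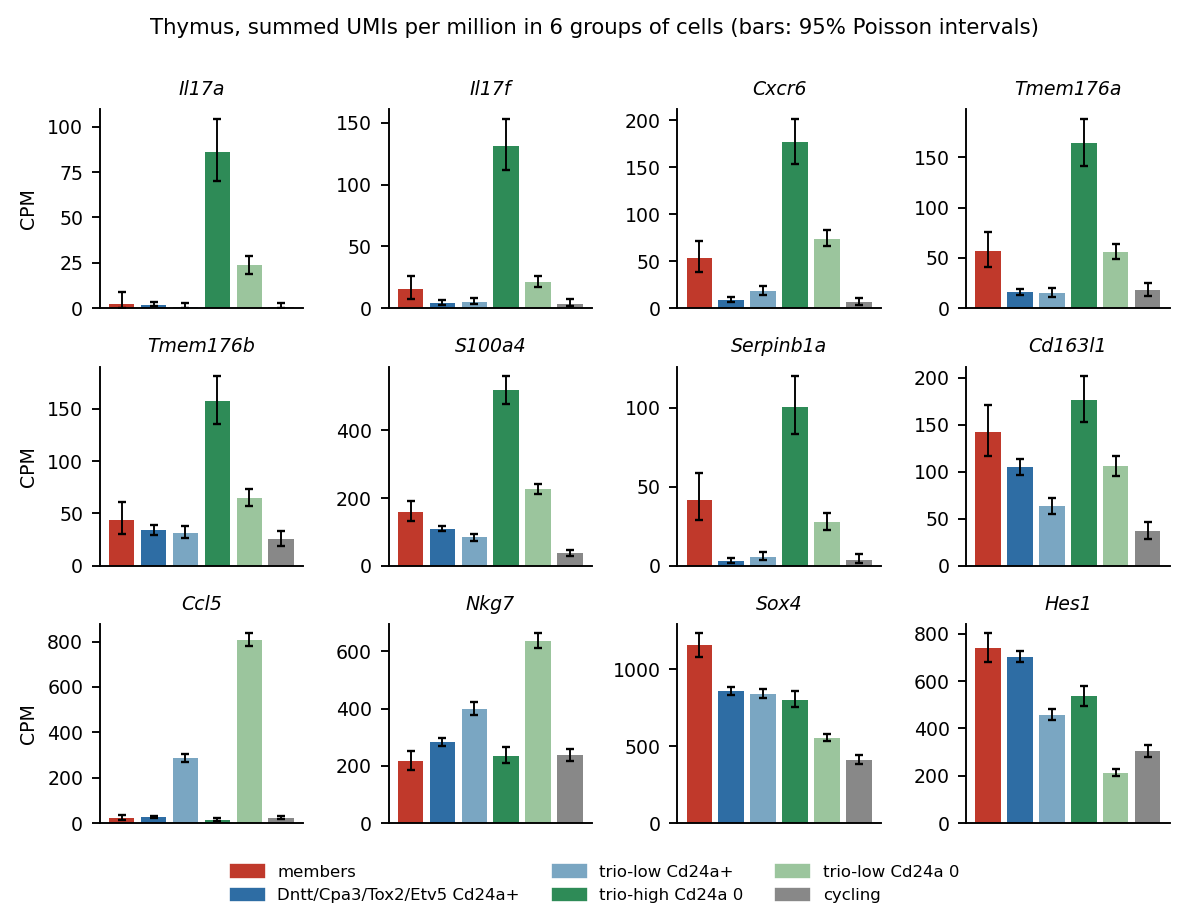
Levels of 10 genes of the IL-17 and type 1 programmes and of Sox4 and Hes1 in the same 6 groups of kept thymus cells, as CPM with 95% Poisson intervals; trio means Sox13, Maf and Blk. Il17a and Il17f are near 0 in the members and high in trio-high cells without Cd24a, and Ccl5 and Nkg7 are highest in trio-low cells without Cd24a.

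The trio-high cells without a Cd24a UMI carry the same Sox13, Maf and Blk limit, and against these 331 cells the chosen cells were lower in the cytokine genes and in most genes that mature IL-17 cells are known for. Of 2735 genes compared, 141 were higher (5.16%) and 116 lower (4.24%). Il17a stood at 2.52 CPM from 2 UMIs against 86.2 CPM from 103 (ratio 0.0292, 0.00349 to 0.108), and Il17f at 15.1 against 131.3 CPM (ratio 0.115, 0.0582 to 0.207). After thinning, an Il17a UMI was found in 0.413% of the chosen cells and 6.95% of the trio-high Cd24a-zero cells. Cxcr6 (52.9 against 176.5 CPM), S100a4 (159.9 against 518.7 CPM), Tmem176b (44.1 against 157.3 CPM), Ccr2 (30.2 against 91.2 CPM), Serpinb1a (41.6 against 100.4 CPM) and Il7r (64.2 against 140.5 CPM) were lower too, so that 11 of 22 compared genes of the IL-17 list were lower, with a median log2 ratio of -0.52 against 0.03 for all genes. Rora stood at 201.5 against 210 CPM (ratio 0.960, 0.782 to 1.18), and 5830411N06Rik was the 1 gene of the list that was higher, at 506.2 against 300.3 CPM (1.69).

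Among the genes higher in the chosen cells than in trio-high Cd24a-zero cells, Tctex1d1 had the highest ratio, at 70.5 against 12.6 CPM (ratio 5.62, 3.14 to 10.7). Ctsl (139.8 against 55.2 CPM), Irf8 (64.2 against 25.1 CPM), Bcl2l11 (231.7 against 96.2 CPM) and the chromatin organiser gene Satb1 (439.5 against 290.3 CPM) were also higher. Of the 331 cells, 162 also met the limit on the early genes and so differed from the chosen cells by the rule in Cd24a alone. Against these 162 cells, a comparison added after seeing the data, 285 of 2791 genes were higher (10.2%) and 235 lower (8.42%), and 16 of 24 compared genes of the IL-17 list were lower. Il17a stood at 189.1 CPM, Cxcr6 at 393.7 CPM, Tmem176a at 333.9 CPM, Ly6a at 434.2 CPM and S100a6 at 1598 CPM in them. Rora (233.5 CPM, ratio 0.863) and 5830411N06Rik (358.9 CPM, ratio 1.41, 1.18 to 1.69) were within 1.5-fold. Icos was lower in the cells with Cd24a (115.8 CPM in the 162, ratio 0.663, 0.457 to 0.964). Sox4 (621.4 CPM, ratio 1.86), Hes1 (382.1 CPM, ratio 1.93), Bcl2l11 (84.9 CPM, ratio 2.73) and Tctex1d1 (5.79 CPM, ratio 12.2, 3.96 to 60.8) were higher in the cells with Cd24a.

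A few of the chosen cells went against the label of immature cells. Over 11 genes of mature IL-17 cells (Il17a, Il17f, Il23r, Ccr6, Cxcr6, Aqp3, Serpinb1a, Ltb4r1, Pxdc1, Tmem176a and Tmem176b), a set chosen after the values were seen, 193 of the 242 cells held no UMI and 36 held 1 or 2. The other 13 cells (5.37%, 2.89 to 9.01) held 167 of the 212 UMIs, and 10 of the 13 held a single Cd24a UMI, as did 60 of the other chosen cells. Genes outside that set differed between these 13 cells and the 193 as well. Ly6a had 54 UMIs in the 13 cells and 4 in the 193. S100a4 was 16.5 times as high (11.2 to 24.4), Il7r 20.4 times (10.7 to 40.2), the integrin gene Itgb7 8.89 times (5.50 to 14.3) and Ccr2 29.97 times (11.1 to 93.5). Sox4 was lower (ratio 0.181, 0.0930 to 0.318), as were Ccr9 (0.235), Cd27 (0.152), Gzma (0.0494) and Sox13 (0.187, 0.0506 to 0.486), while Maf (1.13), Blk (1.27) and 5830411N06Rik (0.843) were alike. Hes1 had no UMI among the 53572 of the 13 cells, which allows up to 56 CPM (3 counts over the UMIs of those cells), against 782.3 CPM in the 193, and Bcl2l11 had none either.

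These 13 cells carried part of the values above. Without them, a step chosen after seeing the data, Cxcr6 stood at 6.75 CPM in the 229 cells in place of 52.9, Tmem176a at 14.9 CPM, Serpinb1a at 4.05 CPM, Ly6a at 8.10 CPM and S100a6 at 79.7 CPM. Each was then lower than in all other kept cells, with ratios of 0.406 for Tmem176a, 0.242 for Serpinb1a, 0.157 for Ly6a and 0.348 for S100a6. In every comparison without the 13 cells, the cells compared against were not filtered on the mature genes. Cxcr6, Tmem176a and Serpinb1a belong to the set that chose the 13 cells, so their fall was set by that choice and supports no statement. All 11 genes of the set are in the IL-17 list. The lower counts and medians of that list without the 13 cells were therefore set in part as well. Cd163l1 came within 1.5-fold of the others (112.1 CPM, ratio 1.20). Ratios above 1.5 remained for these genes: 5830411N06Rik was 2.20 times as high as in the others, Hlf 3.06, Bcl2l11 2.61, Tctex1d1 3.46, Icos 2.07, Sox4 1.69 and Hes1 1.68. Gata3, at 1.49 times before, was then 1.56 times as high.

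Levels also differed with the number of Cd24a UMIs in a cell, and for the mature genes this rested on the same 13 cells, 10 of which held a single Cd24a UMI. Cells with 1 Cd24a UMI numbered 70, those with 2 or 3 numbered 86, and those with 4 or more also 86. Cxcr6 stood at 150.6 CPM in the first, 7.29 CPM in the second and 10.9 CPM in the third. Serpinb1a (114, 10.9 and 7.29 CPM), Tmem176a (146.6, 14.6 and 18.2 CPM) and Ly6a (187.3, 7.29 and 43.7 CPM) were likewise highest in the first. In the 60 cells with 1 Cd24a UMI outside the 13, Cxcr6 had 2 UMIs (9.87 CPM, 1.195 to 35.6), Tmem176a 5 (24.7 CPM), Ly6a 3 (14.8 CPM) and Serpinb1a none, so that the high values of the first group lay in the 10 cells. Hes1 went the other way, at 553.7, 707.6 and 936.8 CPM (ratio of the third to the first 1.69, 1.37 to 2.10), as did Ccr9 at 932.3, 1134 and 1396 CPM (1.497, 1.27 to 1.77) and Ctsl at 97.7, 98.5 and 218.7 CPM (2.24, 1.37 to 3.76). Without the 13 cells Hes1 stood at 670.8 CPM (562.8 to 793.5) in the first group and 974.7 CPM (859.2 to 1101) in the third, Ccr9 at 1095 and 1419 CPM, and Ctsl at 118.4 and 216.2 CPM. The gene of the progenitor factor MYB was 1.72 times as high in the third group as in the first (1.13 to 2.64). Without the 13 cells it stood at 167.7 CPM (116.1 to 234.3) in the first group and 250.3 CPM (193.6 to 318.5) in the third, with overlapping intervals. For Sox13, Maf, Blk and Tctex1d1 (57, 73.0 and 80.2 CPM) the intervals of the 3 groups overlapped. 5830411N06Rik was lowest in the middle group, at 488.5, 357.4 and 670.7 CPM.

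**Figure D4:**
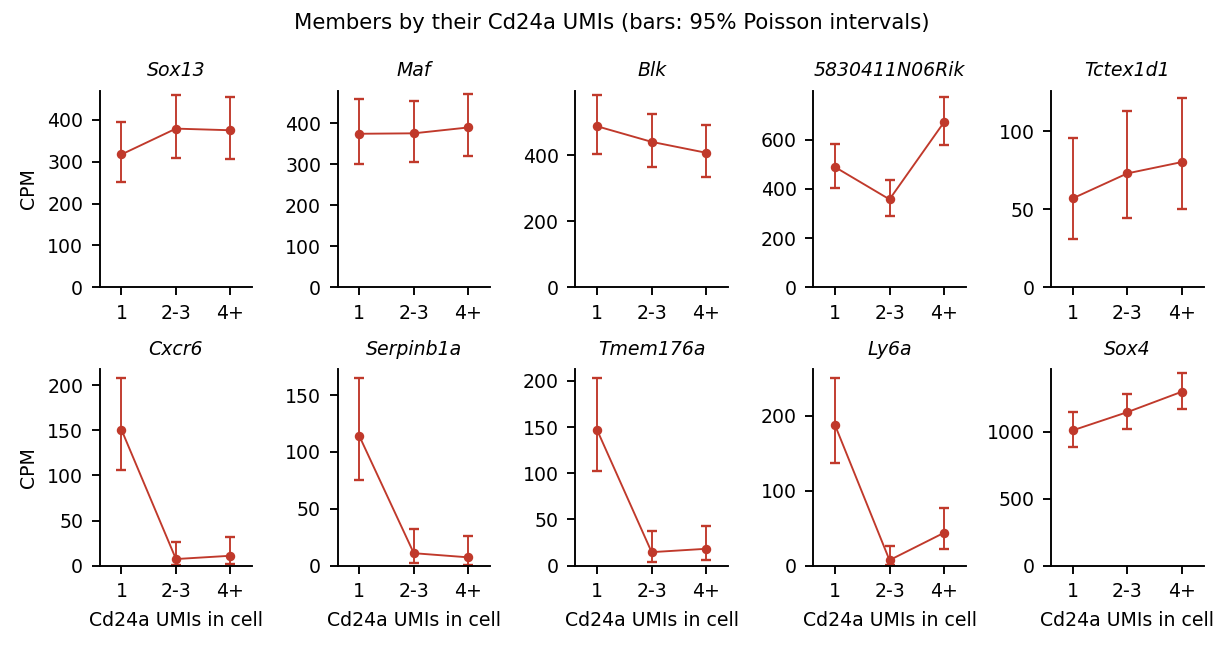
Levels of 10 genes in the 242 Sox13/Maf/Blk cells by the Cd24a UMIs of the cell (70 cells with 1, 86 with 2 or 3, 86 with 4 or more), as CPM with 95% Poisson intervals. Cxcr6, Serpinb1a, Tmem176a and Ly6a are highest in the cells with 1 Cd24a UMI, 10 of which hold most UMIs of these genes, and Sox13, Maf and Blk do not differ beyond their intervals.

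The cells were also set apart by the gene of the trio with the most UMIs, which was Sox13 in 56 cells, Maf in 58 and Blk in 75, with ties in 53. Maf-led cells had more 5830411N06Rik than Sox13-led cells (614.8 against 387.9 CPM, ratio 1.59, 1.18 to 2.14), more Cd163l1 (214.6 against 94.6 CPM, 2.27, 1.28 to 4.13) and more Rora (278.4 against 137.2 CPM, 2.03, 1.25 to 3.34). Hlf stood at 69.6 CPM in Maf-led and 14.2 CPM in Sox13-led cells, from 12 and 3 UMIs (ratio 4.91, 1.32 to 27.1). Nkg7 was lower in Maf-led than in Sox13-led cells, at 156.6 against 359.5 CPM (0.436, 0.270 to 0.684). Irf8 was mostly in Blk-led cells, at 111.4 CPM against 18.9 CPM in Sox13-led ones (ratio of Sox13-led to Blk-led 0.170, 0.0433 to 0.485). Cxcr6 had 25 UMIs in Blk-led, 12 in Maf-led and none in Sox13-led cells, and the 11 mature genes together had 103, 59 and 13 UMIs. A total of 60 genes were looked at in each of 3 such pairs, the subsets were cut from few UMIs per cell, and the values are a description. They were not computed without the 13 cells with mature genes. Those 13 cells held 4.62 times the Cd163l1 (2.91 to 7.16) and 0.298 times the Nkg7 (0.0606 to 0.894) of the 193 cells without such UMIs. For 5830411N06Rik (0.843), Rora (0.981) and Hlf (0.937) the intervals held 1. The part of the 13 cells in these differences was not tested.

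The position of the cells among all kept thymus cells was then read from their nearest neighbours, with the genes of the rule left out. Of the 30 nearest cells to a chosen cell, 9.95% on average were chosen cells, against 4.96% for the other kept cells and 5.56% of all kept cells. The highest value for a chosen cell was 26.7%, and 24 of the 242 had no chosen cell among their neighbours, so that the cells did not form a cluster of their own by genes outside the rule. Their neighbours were Dntt-type cells in 37.5%, trio-low Cd24a+ cells in 25.04%, trio-low Cd24a-zero cells in 15.7% and trio-high Cd24a-zero cells in 11.3%, where these groups make up 29.8%, 23.1%, 29.1% and 7.61% of kept cells. The 13 cells with the mature genes lay elsewhere, with 44.6% trio-low and 33.3% trio-high Cd24a-zero cells and 3.08% Dntt-type cells among their neighbours. The mature genes that picked these 13 cells were not left out here, so their position may follow in part from that choice. With 15 neighbours, with 15 components, or with all listed genes left out, the share of chosen cells among the neighbours of chosen cells was 9.89%, 11.1% and 9.27%.

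**Figure D5:**
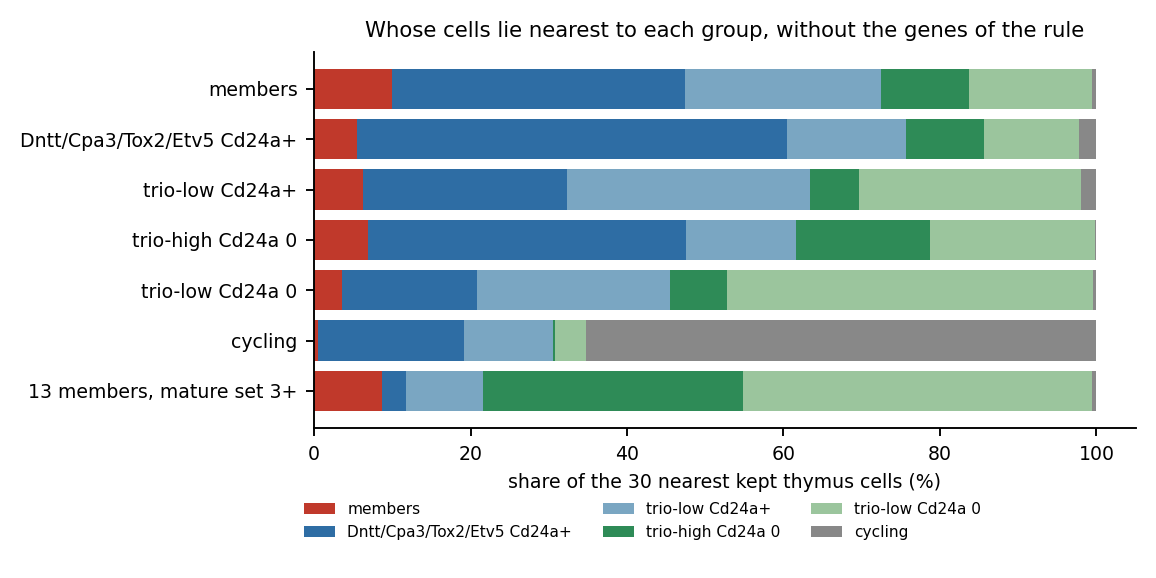
Make-up of the 30 nearest kept thymus cells (percent, horizontal axis) for the cells of each group, computed without the genes of the rule; trio means Sox13, Maf and Blk, and members are the 242 Sox13/Maf/Blk cells. Members take 9.95% of the neighbours of members, and the 13 members with 3 or more UMIs of the mature genes, which were not left out, lie mostly among cells without Cd24a.

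Of 6 lists of markers of other cells, the B cell, myeloid and erythroid lists lay within the range of the other groups in the chosen cells, and the αβ double-positive, natural killer and innate lymphoid, and stroma lists were highest in the chosen cells. The summed level of 10 B cell genes was 70.5 CPM, in a range of 38.4 to 281 CPM over the other groups, that of 12 myeloid genes was 157.4 CPM (142.4 to 401.5 CPM elsewhere) and that of 6 erythroid genes 46.6 CPM (31.8 to 260.9 CPM). Cd4, Cd8b1, Rag1, Rag2, Cd79a, Ms4a1, Lyz2, Csf1r and Tyrobp had no UMI in the 242 cells, which allows up to 3.78 CPM for each (3 counts over the UMIs of the 242 cells). The αβ double-positive list summed to 195.2 CPM against 92.9 to 167.4 CPM. The natural killer and innate lymphoid list summed to 418.1 CPM against 224.7 to 360.5 CPM, most of it Gata3 at 400.4 CPM, and the thymic stroma list to 142.3 CPM against 87.4 to 111.7 CPM. Their part in the results was not tested.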

How the data were processed

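Single-cell libraries of sorted γδ T cells were analysed, 1 from the thymus and 1 from the liver. The counts deposited by the authors are UMIs of each gene in each barcode, made per the labels with Cell Ranger on mm10 and analysed by them in Seurat 3.0; the deposited counts were not normalized. The table held 27998 genes, and 56 symbols had several identifiers. Kept cells had 800 to 4000 genes and at most 6% mitochondrial UMIs. No doublet caller was run here. The members and the lists of genes (19 lists, 298 genes) were chosen with earlier results of these data known.

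Counts were summed over the cells of each group and scaled to CPM. Poisson intervals for levels and conditional binomial intervals for ratios, both exact and at 95%, were computed with Python 3.11.15, numpy 2.4.6, scipy 1.17.1 and pandas 2.3.3, and the ratio script was tested on simulated data. With 1 library per tissue no test between conditions was made. Named genes were the 15 highest and 10 lowest ratios per comparison among genes that reached 50 CPM on the higher side and 50 UMIs in total, and genes of the lists. Shares of cells with a UMI were computed after each cell was thinned to 1500 UMIs. Neighbours were found on log-scaled CPM of variable genes with scikit-learn 1.9.0. Figures used matplotlib 3.10.9. Gene positions and promoters were taken by symbol from RefSeq, GRCm38.p6, for 2650 of the 2752 genes compared. Alternatives changed the scaling, the depth, the limits of the rule and the filters on cells and genes. Results for some genes are not reported here.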

Additional observations from a re-analysis of the deposited data

Results flagged for a closer look

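The liver library was not used in the comparisons above, and 7 of its 8075 kept cells met the limits of the rule (0.0867%, 0.0349 to 0.179), above the 3 counts that a count of 0 allows. The 7 cells held a median of 5251 UMIs against 2741 in all kept liver cells. Cd24a had 13 UMIs in all 7, Maf 13 UMIs in 6, Blk 19 UMIs in 5 and Sox13 5 UMIs in 3. No Hlf UMI was found, whereas 5830411N06Rik had 6 UMIs and Cd163l1 12. Ccl5 had 84 UMIs, at least 1 in each of the 7 cells, and Cxcr6 20 UMIs in 6 cells. Il17a had 29 UMIs in 3 cells, 25 of them in 1 cell, and Cd74 had 63 UMIs, 59 of them in 1 cell. Cd79a, a B cell gene, had 6 UMIs in 1 cell, and the myeloid and natural killer cell gene Tyrobp 12 UMIs in 4 cells. With 7 cells no level was compared with the thymus.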

How the results depend on the processing

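No paired analysis was possible because each tissue had 1 library. The rule gave 439 cells with at least 2 trio UMIs and 118 with at least 4. Against all other kept cells, 157 genes higher and 135 lower became 89 and 76 with cells weighted to equal depth, 262 and 233 without mitochondrial and ribosomal UMIs in the total, 25 and 34 past 2-fold, 446 and 402 from 20 CPM, 61 and 58 from 100 CPM, and 80 lower without cycling cells. Against Dntt-type cells, 155 and 84 became 248 and 143 with cells thinned to 1500 UMIs, 49 and 35 weighted, 237 and 169 without mitochondrial and ribosomal UMIs, and 132 lower for members with at least 2 Cd24a UMIs. Against trio-low Cd24a+ cells, 128 and 111 became 212 and 177 thinned, and 231 and 214 without mitochondrial and ribosomal UMIs. Against trio-high Cd24a-zero cells, 141 and 116 became 264 and 202 without those UMIs, 176 lower for members with at least 2 Cd24a UMIs, and 285 and 235 with early genes limited in both groups. Totals without mitochondrial and ribosomal UMIs let 3850 genes pass the filter in place of 2752. For the other moves the cause was not tested.

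The log2 ratios over all other kept cells of Tmem176a, Serpinb1a and Aqp3 changed sign in 4 settings: -1.22, -0.99 and -1.63 with at least 2 Cd24a UMIs, -0.96, -0.37 and -0.039 with the rule applied to cells thinned to 2000 UMIs, -0.90, -0.73 and -0.98 in the split UMIs, and -1.30, -2.05 and -0.95 without the 13 cells with mature genes. Of 58 genes followed in 18 alternatives, 49 kept their sign. Cxcr6, Ly6a, S100a4, S100a6 and Gzma, each within 1.5-fold at first, changed sign in 6 to 10 alternatives, and Il17f in 1. With cells weighted to equal depth, 16 of the 58 moved beyond their interval, among them Bcl2l11, Icos, 5830411N06Rik, Sox4 and Hes1. In the split UMIs 33 of the 58 moved beyond their interval. Of the calls over all others, 53 of the 157 higher and 60 of the 135 lower were also made there. The alternatives without cycling cells, without the 13 cells, without shared barcodes, with at least 2 Cd24a UMIs against single groups, and with early genes limited were added after seeing the data. Genes under about 50 UMIs in the 242 cells are limited by depth.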
